A study of Drosophila melanogaster with 6 samples.

Results

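The genes described here are 10 components of the *Drosophila melanogaster* septate junction: *cora*, *Nrx-IV*, *sinu*, *kune*, *Mcr*, *Gli*, *crok*, *bou*, *Cont* and *Nrg*. They were chosen by symbol, with earlier results of these data known. All 10 were present among the 17208 genes of the count table and passed the filter on low counts. RNA was taken from whole embryos aged 16-20 h at 25 °C. The mutants carried the alleles *ft* fd5-5 and *ft* X13 over each other, a pair the series calls null for Fat (4 libraries, here *ft* null). The reference strain was w1118 (2 libraries), the wild type of the series, which carries a mutation of *white*, a gene for eye pigment. How mutant embryos were told from their siblings, how many embryos entered a library and what the mutants carry elsewhere in the genome were not stated. Strain background moves with genotype in this design, as any difference in mean age within the window would, and neither can be told apart from the *ft* alleles.

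Septate junctions are ladder-like contacts along the lateral membranes of insect epithelia, below the adherens junction, and in the glia that wrap the nervous system. They block the passage of solutes between cells, as tight junctions do in vertebrates, and are also needed for the size and shape of the tracheal tubes. The junction is built during the second part of embryogenesis from a large complex of membrane proteins, in which loss of any core component usually disrupts the rest. Fat, the product of *ft*, is a very large cadherin of the cell surface with roles in tissue growth, through Hippo signalling, and in planar polarity.

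The genes lie on 5 chromosome arms (dm6 coordinates, Ensembl release 115). *Mcr* (2L from 8074117 to 8082982, minus strand), *crok* (2L from 12172981 to 12174091, plus strand) and *Gli* (2L from 15756002 to 15762758, minus strand) share the arm of *ft*, at 3.85, 7.95 and 11.5 Mb from it. *cora* (2R from 19229063 to 19243751) and *kune* (2R from 5671741 to 5672800) lie on the other arm of that chromosome. *Nrx-IV* (3L from 12146519 to 12156990) and *sinu* (3L from 5559470 to 5561598) are on 3L, *Cont* (3R from 4381306 to 4387018) is on 3R, and *Nrg* (X from 8517373 to 8555170) and *bou* (X from 6986486 to 6987188) are on X. Their merged exons span from 0.703 kb in *bou*, a gene of 1 exon with a coding sequence of 149 codons, to 9.99 kb in *Nrg*, with 9 annotated transcripts. The longest coding sequence is that of *Mcr*, with 1760 codons. Exons of other genes overlap 124 bases (1.97%) of *Mcr*, from the antisense gene asRNA:CR45257, and 2 bases of *crok*. The library kit does not mark strand, so reads there cannot be assigned to either gene.

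Libraries held 21261928 to 29151981 estimated counts, and the genes of the list had between 810 counts (*crok* in w1118 replicate 2) and 38058 (*Nrg* in *ft* null replicate 4). *ft* itself stood at 28.6, 29.0, 32.2 and 30.5 CPM in *ft* null replicates 1 to 4, and the controls were at 43.2 and 46.3 CPM (replicates 1 and 2). CPM is the count scaled to the effective library size. The log2 fold change of *ft* was -0.57 (SE 0.106, edgeR adjusted p = 0.0249), but the call was lost without any single library other than *ft* null replicate 1 (edgeR adjusted p from 0.0563 to 0.127). RNA of known late embryonic tissues was present in every library, with the muscle gene *Mhc* at 5921 to 10626 CPM and the neuronal gene *elav* at 89.0 to 101 CPM.

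The 2 control libraries differed from each other by gene length. Among the tested genes with the shortest merged exons (123 to 981 bases), w1118 replicate 1 lay above replicate 2 by a median of 0.42 on the log2 CPM scale. Among those with the longest (4333 bases or more), it lay below by a median of -0.28. Across 11461 tested genes with an annotated length, Spearman's rho between length and this difference was -0.57, a description across genes, which are not independent replicates and share the 2 libraries. Within single libraries rho between length and the deviation from the 6-library mean was -0.29 and 0.39 in w1118 replicates 1 and 2 and -0.22 to 0.028 in the 4 *ft* null libraries. Since the list mixes short and long genes, its values are given with each control separately.

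**Figure D1:**
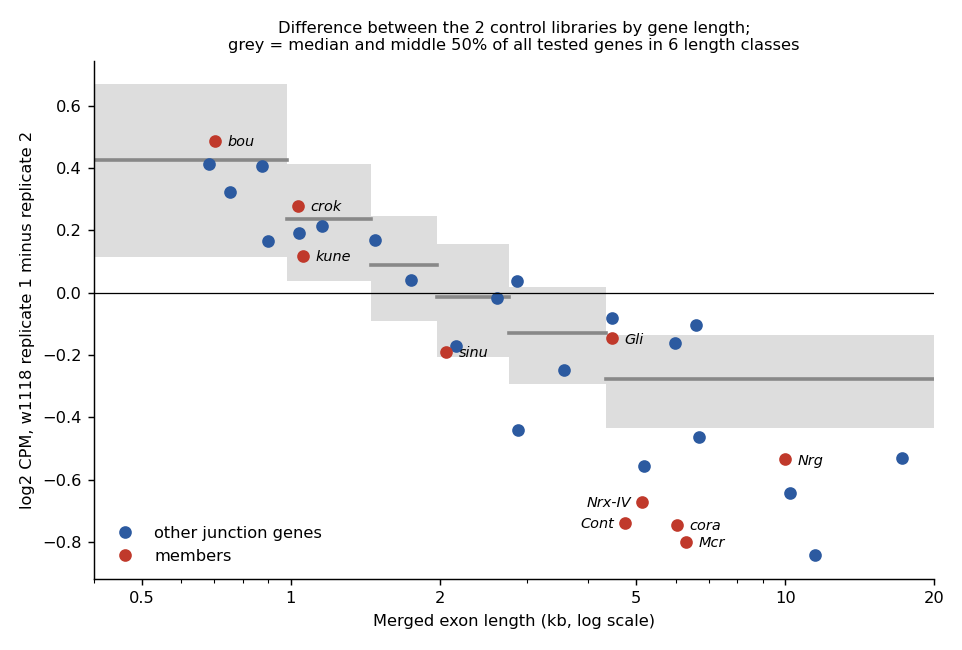
The difference in log2 CPM between w1118 replicates 1 and 2 (vertical axis) against merged exon length in kb (log scale) for the 10 septate junction genes (red) and 21 other septate junction genes (blue), over the median (grey line) and middle 50% (grey band) of all tested genes in 6 length classes. *bou* and *crok* lie above 0 near the median of short genes, and *Nrx-IV*, *Cont*, *cora*, *Mcr* and *Nrg* lie below the middle 50% of long genes.

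None of the 10 genes differed between the genotypes at an edgeR adjusted p under 0.05. Over all 11542 genes tested, 4.3% were called, 2.15% higher and 2.15% lower. DESeq2 and limma voom called 0 of the 10 as well, beside 8.4% (DESeq2) and 524 (limma voom) of the 11542 genes tested. At an unadjusted p under 0.05 in edgeR, *Nrx-IV* and *Cont* were higher in *ft* null and none was lower. Of all tested genes, 20.1% were past that level in either direction, and 9.92% of all tested genes were past it and higher. The fitted log2 fold change was above 0 for 9 of the 10 genes, against 51.9% of all genes tested, with a median of 0.16 against 0.01. Without w1118 replicate 1 it was above 0 for 7 of the 10 (median 0.13), and without w1118 replicate 2 for 8 (median 0.35). In *Nrx-IV*, *sinu* and *Cont* the 4 *ft* null libraries lay above both controls; 31.5% of all tested genes had groups that did not overlap, 15.1% in that direction and 16.4% in the other. Whether the number of junction-forming cells or the RNA per cell lies behind a level cannot be told apart in whole embryos.

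**Figure D2:**
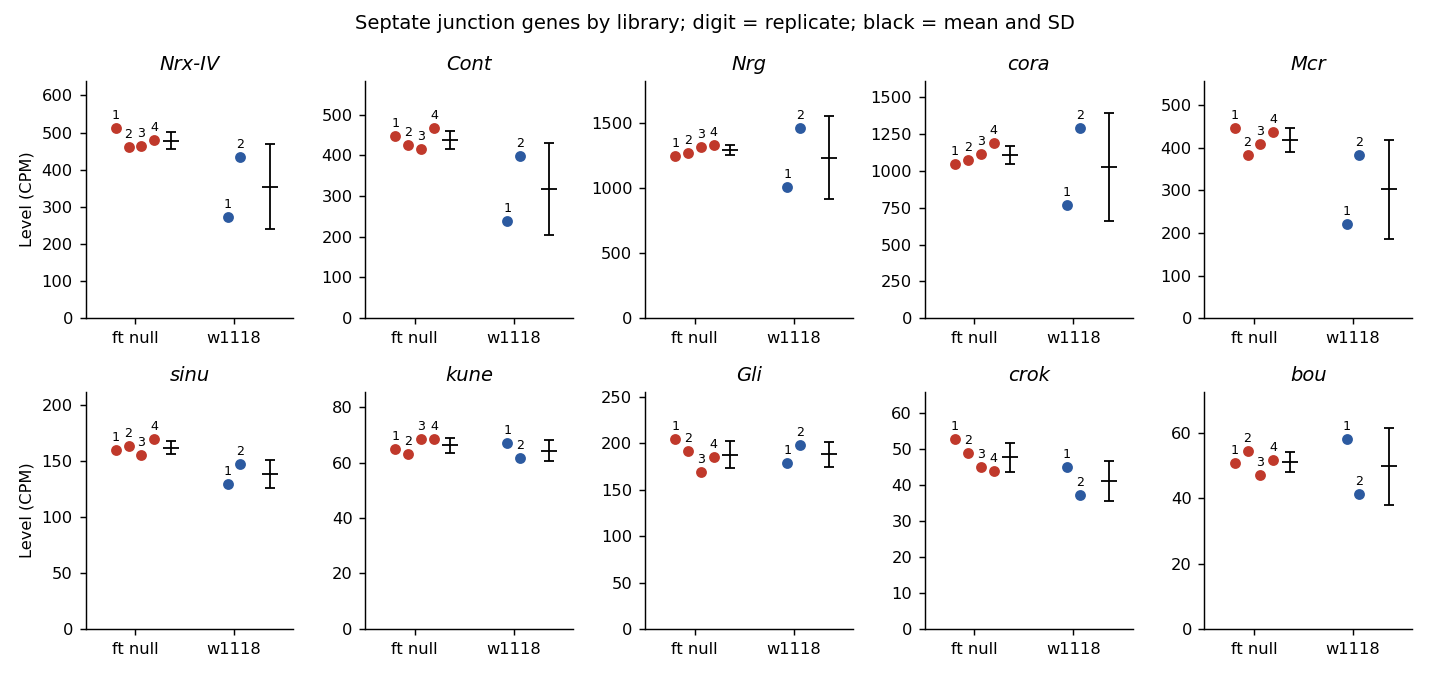
Levels in CPM (vertical axes from 0) of the 10 genes in 4 *ft* null libraries (red) and 2 w1118 libraries (blue), with the replicate number at each point and the mean and SD in black. In *Nrx-IV*, *Cont*, *Mcr*, *cora* and *Nrg* w1118 replicate 1 is the lowest library, while w1118 replicate 2 is close to or above the *ft* null libraries.

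*Nrx-IV*, *Cont* and *Nrg* encode cell adhesion proteins that form a complex across the septate junction: Neurexin IV, a transmembrane relative of vertebrate Caspr; Contactin, an immunoglobulin-type protein held by a lipid anchor; and Neuroglian, of the L1 family. *Nrx-IV* was at 511, 460.3, 464 and 479 CPM in *ft* null replicates 1 to 4, while w1118 replicates 1 and 2 were at 273 and 435 CPM. The mutant libraries were all above the controls, but the closest pair differed by far less than the controls did from each other. Its log2 fold change was 0.44 (SE 0.184, 95% interval 0.01 to 0.86, edgeR adjusted p = 0.239). *Cont* was likewise above both controls in every mutant library, with 446, 425, 416 and 466 CPM in the mutants and 238 and 397 CPM in w1118. That gave a log2 fold change of 0.46 (SE 0.196, 95% interval 0.01 to 0.92, edgeR adjusted p = 0.24). *Nrg* stood higher, at 1249.8, 1268, 1315 and 1329 CPM in the mutants and 1007 and 1459 CPM in w1118. Its mutant libraries were the tightest of the list, with a coefficient of variation of 2.92%, and lay between the controls (log2 fold change 0.07, 95% interval -0.31 to 0.44, edgeR adjusted p = 0.864). The table gives 1 value per gene, so the epithelial and neuronal forms of Neuroglian were not separated.

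*cora* and *Mcr* act with this complex. Coracle is a FERM domain protein of the Band 4.1 family that binds the inner tail of Neurexin IV, and Mcr is a large relative of complement and macroglobulin proteins. *cora* was at 1050.2, 1074, 1117 and 1191 CPM in the mutants and at 770 and 1289 CPM in w1118. As with *Nrg*, all mutant libraries lay between the controls, and the 95% interval of the log2 fold change was wide, from -0.35 to 0.57 (estimate 0.11, edgeR adjusted p = 0.816). *Mcr* was at 445, 382, 409 and 437 CPM in the mutants and at 220.3 and 383 CPM in w1118. It had the highest estimate of the list, a log2 fold change of 0.47 (SE 0.211, 95% interval -0.01 to 0.96, edgeR adjusted p = 0.259), although *ft* null replicate 2 lay just under w1118 replicate 2. Relative to the *ft* null mean, *Mcr*, *Cont* and *Nrx-IV* were at 52.7%, 54.4% and 57.1% in w1118 replicate 1, and at 91.7%, 90.7% and 90.8% in w1118 replicate 2.

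Which control was used therefore set the size of these estimates. Without w1118 replicate 2, *Nrx-IV*, *Cont* and *Mcr* were at log2 fold changes of 0.81, 0.88 and 0.93. Without w1118 replicate 1 they were at 0.14, 0.14 and 0.13. *cora* moved from 0.53 without w1118 replicate 2 to -0.22 without replicate 1, and *Nrg* from 0.36 to -0.18. Each of these fits rests on 1 control, which is assumed to vary as the mutants do.

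The low values of these genes in w1118 replicate 1 can be set beside the length trend, but its part in them was not tested. The class with the longest exons (4333 to 71820 bases) had a middle 50% of -0.43 to -0.13 for replicate 1 minus replicate 2 in log2 CPM. *Mcr*, *cora*, *Cont*, *Nrx-IV* and *Nrg* were at -0.80, -0.74, -0.74, -0.67 and -0.53. After a smooth trend on length was removed from each library, a step added after the data were seen, differences of -0.53, -0.48, -0.52, -0.43 and -0.18 remained. In that fit *Nrx-IV*, *Cont* and *Mcr* had log2 fold changes of 0.50, 0.53 and 0.57 with edgeR adjusted p of 0.0781, 0.0899 and 0.0831. *Gli*, also a long gene, was at -0.15 before and 0.05 after the trend was removed. How RNA or cDNA quality differed between the control libraries was not tested.

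*sinu* and *kune* encode claudin-like membrane proteins, Sinuous and Kune-kune, which the junction needs for its barrier. *sinu* was at 160.2, 163, 156 and 169.7 CPM in the mutants and at 129.6 and 148 CPM in w1118. Its mutant libraries were all above the controls, with a log2 fold change of 0.23 (SE 0.109, 95% interval -0.02 to 0.48, edgeR adjusted p = 0.289) that ran from 0.14 without w1118 replicate 1 to 0.33 without replicate 2 over the 13 alternative fits. *kune* was at 64.9, 63.0, 68.5 and 68.4 CPM in the mutants and at 67.0 and 61.7 CPM in w1118. The groups overlapped throughout, and the 95% interval of -0.20 to 0.28 (edgeR adjusted p = 0.868) leaves room for changes of that size in both directions.

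*Gli* encodes Gliotactin, a relative of the neuroligins that sits at corners where 3 cells meet. It was at 205, 191, 169.5 and 185 CPM in the mutants and at 179 and 198 CPM in w1118. The groups overlapped, and its estimate was the closest to 0 (log2 fold change -0.00, SE 0.118, 95% interval -0.28 to 0.27, edgeR adjusted p = 0.989).

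*crok* and *bou* encode small proteins of the Ly6 family, Crooked and Boudin, that are needed for the junction to assemble. *crok* was at 52.7, 49.0, 45.1 and 43.9 CPM in the mutants and at 45.1 and 37.1 CPM in w1118, with a log2 fold change of 0.21 (95% interval -0.09 to 0.51, edgeR adjusted p = 0.407). It was 0.36 without w1118 replicate 1 and 0.09 without replicate 2, not called in either. *bou* was at 50.8, 54.5, 47.2 and 51.7 CPM in the mutants and at 58.1 and 41.4 CPM in w1118 (log2 fold change 0.04, 95% interval -0.30 to 0.38, edgeR adjusted p = 0.923). Its controls bracketed the mutants, as those of *cora* and *Nrg* did, but in the reverse order: w1118 replicate 1 was the highest library for *bou* and the lowest for *cora* and *Nrg*.

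**Figure D3:**
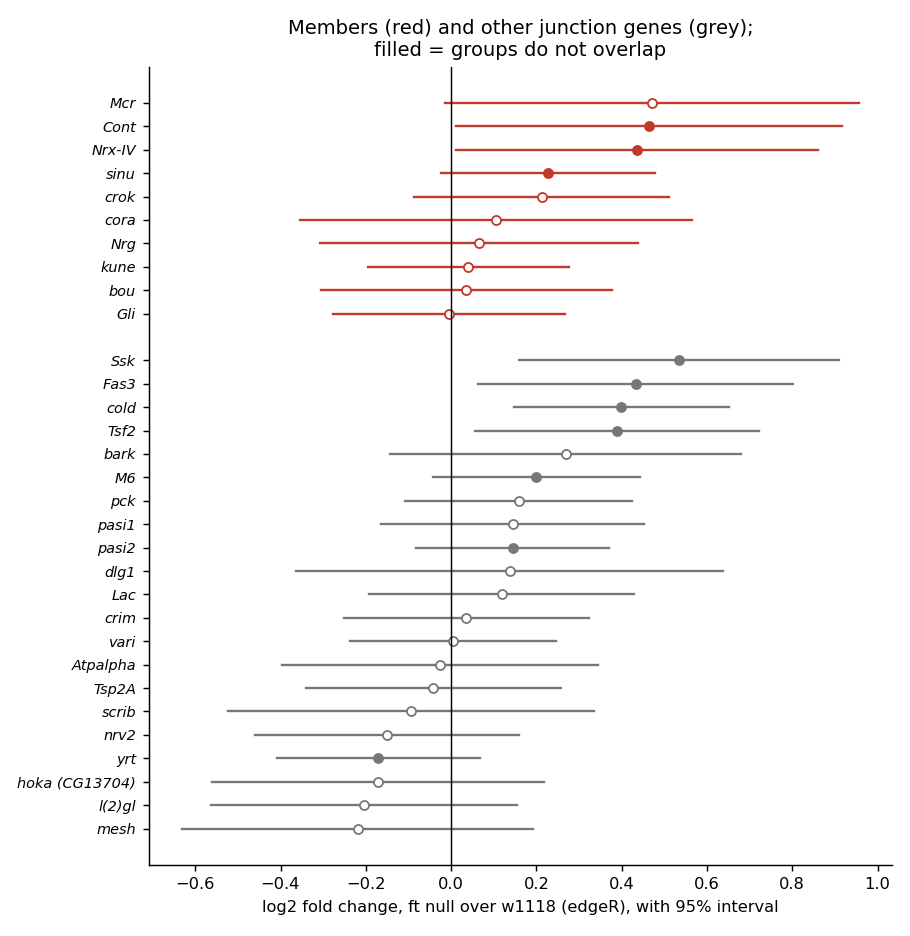
Log2 fold change of *ft* null over w1118 (horizontal axis) with its 95% interval from edgeR for the 10 genes (red) and 21 other septate junction genes (grey). Filled points mark genes whose groups do not overlap; *Nrx-IV*, *Cont* and *sinu* are filled among the 10, and no gene shown passed the adjusted threshold.

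Levels can be ranked across genes only per unit of length. *cora* led with 183 ± 10.3 CPM per kb of merged exon in the 4 mutant libraries and 170.4 ± 60.8 in the 2 controls (SD), followed by *Nrg* at 129 ± 3.78 and 123 ± 32.0 CPM per kb. *Nrx-IV* (93.2 ± 4.49 and 68.9 ± 22.2 CPM per kb) and *Cont* (92.4 ± 4.73 and 67.0 ± 23.7 CPM per kb) were nearly level. *sinu*, *bou*, *Mcr* and *kune* came next at 78.6, 72.6, 66.4 and 62.5 CPM per kb in *ft* null, and *crok* and *Gli* were lowest at 46.1 and 42.0 CPM per kb. In w1118 *sinu*, *bou*, *Mcr* and *kune* averaged 67.2, 70.8, 47.9 and 60.7 CPM per kb, and *crok* and *Gli* 39.8 and 42.1. The order of means in w1118 thus differed, with *bou* above *Nrx-IV*, *Cont* and *sinu*. The part of the length pattern between libraries in this order was not tested. In the order of the means over all 6 libraries, the ranges of neighbouring genes overlapped, except between *Nrg* (100.8 to 146 CPM per kb) and *Nrx-IV* (53.2 to 99.5 CPM per kb). With the longest transcript in place of merged exons, *Nrg* was at 175 CPM per kb in *ft* null and *cora* at 188, so the distance between these genes depends on which transcripts are made.

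**Figure D4:**
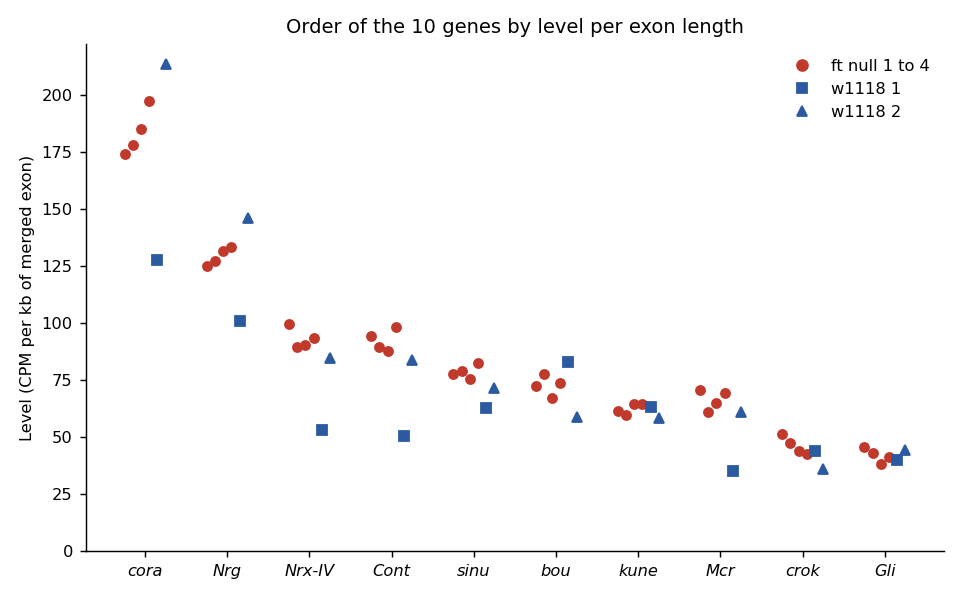
Level in CPM per kb of merged exon (vertical axis from 0) of the 10 genes in each library, ordered by the mean over 6 libraries, with *ft* null in red circles and w1118 replicates 1 and 2 as blue squares and triangles. *cora* and *Nrg* stand above the others, and the square falls away from the other points in *cora*, *Nrg*, *Nrx-IV*, *Cont* and *Mcr*.

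*Nrx-IV*, *Cont* and *Mcr* kept nearly fixed proportions in all 6 libraries. Per kb of exon, the ratio of *Cont* to *Nrx-IV* was 0.945, 0.999, 0.970 and 1.05 in the 4 mutant libraries, and the controls had 0.944 and 0.990. The ratio of *Mcr* to *Nrx-IV* lay between 0.658 and 0.744 and that of *Mcr* to *Cont* between 0.678 and 0.751. Of the 45 pairs among the 10 genes, these were the 3 with the smallest SD of the log2 ratio over the libraries (0.0559 to 0.0647), and *cora* with *Nrg* came next (0.0805). The widest was *Mcr* with *bou* (0.487). These proportions held while w1118 replicate 1 had little more than 50% of the mutant level of each, a description over 6 libraries that share 1 low sample and, for these genes, similar lengths.

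The root mean square distance between log2 deviations from the 6-library mean places these pairs among other genes. Among 5091 other tested genes with an average log2 CPM of at least 5, *Cont* was the nearest but 1 to *Mcr* (rank 2, distance 0.0511) and *Nrx-IV* was at rank 4. Seen from *Nrx-IV*, *Cont* and *Mcr* were at ranks 6 and 8. *Nrg* was at rank 20 from *cora*, and *cora* at rank 71 from *Nrg*. For *sinu*, *kune*, *Gli*, *crok* and *bou*, the nearest of the 10 was at rank 364 or beyond, so many genes outside the list had profiles closer to theirs. To the median profile of the 10, the nearest genes outside the junction lists were *CG1234*, *Pgant5*, *c12.2*, *CG1703* and *eff*, at distances of 0.0209 to 0.0374 over 6 libraries.

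The 21 other septate junction genes include *Ssk*, *mesh*, *Tsp2A* and *hoka* of the smooth septate junctions, so they are not all partners of the 10 in a single complex. They likewise gave 0 calls in edgeR and in limma voom, and DESeq2 called 2, *cold* and *Ssk*, where it called 8.4% of all genes tested. At an unadjusted p under 0.05 in edgeR, 4 of the 21 were higher (*Fas3*, *Tsf2*, *cold* and *Ssk*) and 0 were lower, beside 9.92% higher among all genes tested. Their median log2 fold change was 0.12, with 13 above 0 and 8 below. In 6 of them the mutant libraries were all above both controls and in *yrt*, a FERM domain gene, all below (log2 fold change -0.17, edgeR adjusted p = 0.404), beside 15.1% and 16.4% of all genes tested.

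*cold*, which encodes the Ly6 protein Coiled, related in kind to Crooked and Boudin, was at 63.1, 63.5, 67.9 and 65.7 CPM in the mutants and 53.0 and 45.6 CPM in w1118. The mutants were tight and clear of both controls (log2 fold change 0.40, SE 0.11, edgeR adjusted p = 0.0866; DESeq2 adjusted p = 0.0363). *Ssk*, which encodes Snakeskin of the smooth septate junctions of the midgut, was at 504, 700.1, 662 and 686 CPM in the mutants and 466 and 415 CPM in w1118. Its log2 fold change of 0.53 was not called (SE 0.163, edgeR adjusted p = 0.116; DESeq2 adjusted p = 0.0278), but was 0.63 without *ft* null replicate 1 (edgeR adjusted p = 0.0178). Of the genes for its partners, *mesh* was at -0.22, *Tsp2A* at -0.04 and *hoka* (*CG13704* in the table) at -0.17, none of them called, and the difference between these genes and *Ssk* was not tested.

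*Fas3*, which encodes the adhesion protein Fasciclin III, averaged 967 ± 144 CPM in the 4 mutant libraries and 716 ± 36.2 CPM in the 2 controls (SD), a log2 fold change of 0.43 (edgeR adjusted p = 0.182). *Tsf2*, which encodes the iron-binding junction protein Melanotransferrin, was at 327 ± 14.2 and 249.5 ± 53.6 CPM (0.39, edgeR adjusted p = 0.183). That value was 0.18 without w1118 replicate 1 and 0.63 without replicate 2. The multi-pass protein gene *pasi2* and *M6*, a gene of tricellular junctions, were separated as well, at log2 fold changes of 0.14 and 0.20 (edgeR adjusted p = 0.458 and 0.334). The length pattern of the controls was found here too: of 8 genes of this list with more than 4096 bases of exon, all 8 were lower in w1118 replicate 1 than in replicate 2, against 4 of 13 shorter ones. Among the 10 it was 6 of 6 and 1 of 4, and among all tested genes 1848 of 2093 and 3679 of 9368.

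In edgeR, 1 marker gene of the tissues that build these junctions was called. Over all 11542 genes tested, edgeR called 4.3%, DESeq2 8.4% and limma voom 524 genes. Past an unadjusted p of 0.05 in edgeR, 9.92% of all genes tested were higher and 1177 genes were lower. In the tracheal list of 5 genes, *btl*, which encodes the FGF receptor of the tracheal branches, rose from 9.27 to 17.5 CPM on average (0.92 on the log2 scale, SE 0.151, edgeR adjusted p = 0.016), and the median of the list was 0.49. The call of *btl* was lost without *ft* null replicate 3 or w1118 replicate 1 (edgeR adjusted p = 0.0614 and 0.0789). At an unadjusted p under 0.05, 3 of the 5 were higher, limma voom called *btl* alone, and DESeq2 called 2, *btl* and *uif* (DESeq2 adjusted p = 0.0209 for *uif*). The summed level of these 5 genes ran from 6103 to 8245 CPM in the mutants and was 4915 and 5590 CPM in w1118. Most of that sum came from *serp* (means of 3109 CPM in *ft* null and 2518 in w1118) and *Gasp* (2978 and 2116 CPM). The tracheal regulator gene *trh* was nearly level, with means of 40.3 and 41.4 CPM (log2 fold change -0.04). The 7 epidermal and barrier genes had a median of 0.14, with sums of 6769.6 to 8774 CPM and of 5096 and 6724 CPM. Most of these sums came from *verm* (means of 3814 CPM in *ft* null and 2619 in w1118) and *serp*. In edgeR and limma voom 0 were called, and DESeq2 called 1, *stw*. At an unadjusted p under 0.05 in edgeR, 2 were higher and 1 was lower. The lower gene, *ple*, had a log2 fold change of -0.44 (edgeR adjusted p = 0.137). The summed level in w1118 replicate 1 was the lowest of the 6 libraries for both lists, as it was for the adherens junction genes (2678 CPM against 2919 to 3587) and the neuronal genes (746 CPM against 802 to 987). The sum over all genes tested was also lowest there, at 946011 CPM against 980518 to 1029930. Single genes did not all follow: the neuronal gene *fne* was highest in that library, at 164 CPM. The gene *serp* is in both the tracheal and the epidermal list. The part of these cell types in the junction values was not tested. Of 8 glial and blood-brain barrier genes, 0 were called in edgeR, DESeq2 or limma voom and 0 had an unadjusted p under 0.05 in edgeR (median 0.07, sums of 1166 to 1300.1 CPM and of 1169 and 1409 CPM); *nrv2* is also in the list of other junction genes. No gene of the adherens junction list (8 genes, median 0.06), salivary gland (4 of 5 tested, median -0.22), neurons (5, median 0.05), hindgut (3, median -0.04) or somatic muscle (4, median -0.20) was called in edgeR or limma voom. DESeq2 called 1 adherens junction gene and 1 muscle gene. At an unadjusted p under 0.05 in edgeR there were 2 (both higher), 0, 1 (lower), 0 and 1 (lower).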

How the data were processed

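The authors deposited 1 table of estimated counts, one value for each gene in each library, without normalization. The submitters' processing notes name FastQC 0.10, Trimmomatic 0.33, Salmon 1.80, edgeR and build dm6; which annotation release and options were used was not stated. The SMARTer Ultra Low RNA kit was used on 10 ng of RNA, per the labels' protocols, followed by 12-15 PCR cycles and 150-base paired reads without molecular identifiers. Depth was 21261928 to 29151981 estimated counts per library.

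Estimated counts were rounded, filtered with filterByExpr, scaled by TMM, and the quasi-likelihood F test of edgeR 4.0.16 (R 4.3.3) was run over all 6 libraries with genotype as the term. The Benjamini-Hochberg adjustment covered 11542 genes, and a gene was called at an adjusted p under 0.05. The standard error is the log2 fold change divided by the square root of F, and 95% intervals use the moderated degrees of freedom. Log2 CPM uses a prior count of 2. Alternatives were RLE factors, no low-count filter, DESeq2 1.42.0, limma voom (limma 3.58.1), each library left out, replicates 1 and 2 with and without a replicate block, and, added after the data were seen, a loess trend (span 0.5) on exon length removed per library. Lengths and positions are from Ensembl release 115 for BDGP6.54, which has dm6 coordinates and held 17083 of the genes. In simulated counts at this design (11372 genes), edgeR recovered 68.8% of 2-fold changes, and 8.84% of its calls were genes simulated without a change. The simulation held no length pattern between libraries and no change smaller than 2-fold, so it cannot tell how often smaller changes are found.

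No label says that the libraries are separate collections of embryos: p-values reflect only how far these samples scatter, which may be technical. The genes, lists and tests were chosen with earlier results of these data known. Named genes are the 10, *ft*, genes of the other junction list that were called or separated between genotypes, called genes of the marker lists, and the 5 genes nearest in profile. *mesh*, *Tsp2A*, *hoka*, *nrv2*, *serp*, *Gasp*, *trh*, *verm*, *ple*, *stw*, *uif*, *fne*, *Mhc* and *elav* were named outside that rule.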

Additional observations from a re-analysis of the deposited data

Results flagged for a closer look

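In the 4 *ft* null libraries, 2 of 31 septate junction genes had 1 library far from the other 3; chance flags about 1 in 20 such groups. *nrv2*, which encodes a beta subunit of the sodium pump needed in the junction, was at 569 CPM in *ft* null replicate 1, against 669 to 680 CPM in the others. *M6* was at 147 CPM in *ft* null replicate 2, against 163 to 165 CPM in the others.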

How the results depend on the processing

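Over all genes, 248 were called higher and 248 lower. DESeq2 called 517 and 453, and replicates 1 and 2 only gave 131 and 117. Leaving out 1 library at a time gave 101 to 425 higher and 72 to 381 lower. Of the 10 septate junction genes 0 were called in every alternative except without w1118 replicate 2 (3 called), so leaving out a library gave 0 to 3; for the other 21 it gave 0 to 1, and DESeq2 called 2. The median of the 10 was 0.16, from 0.13 without w1118 replicate 1 to 0.35 without w1118 replicate 2, and 0.20 with the length trend removed; that of the 21 was 0.12, from 0.0491 to 0.13 with a library left out. Signs turned for genes near 0. *kune* was at -0.0053 with the length trend removed, -0.0083 with the replicate block and -0.0095 with replicates 1 and 2 only, and ran from -0.0117 without w1118 replicate 2 to 0.1017 without w1118 replicate 1. *Gli* was at 0.0025 without the filter, 0.0287 with the length trend removed, 0.074 with the block and 0.0729 with replicates 1 and 2 only, and ran from -0.0763 without w1118 replicate 1 to 0.0751 without w1118 replicate 2. *bou* was at -0.0108 with the length trend removed and ran from -0.18 without w1118 replicate 2 to 0.302 without w1118 replicate 1. *cora* and *Nrg* ran from -0.22 and -0.18 without w1118 replicate 1 to 0.5305 and 0.3628 without w1118 replicate 2. The cause of the sign changes and moved values, including those of the single-control fits, was not tested.

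The replicate number is not said to pair samples. Deviations of same-numbered libraries correlated at 0.0948 across genes, and with 2 shared numbers the block gave 231 higher and 262 lower genes and 0 of the 10. *ft* lost its call there (-0.64, edgeR adjusted p = 0.0868) and with the length trend removed (-0.42, edgeR adjusted p = 0.0803). It was lost as well with replicates 1 and 2 only (-0.64, edgeR adjusted p = 0.115). The call of *btl* was also lost with the block (0.88, edgeR adjusted p = 0.0714) and with replicates 1 and 2 only (0.87, edgeR adjusted p = 0.109). An effect of depth on these results was not tested.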
